A study of Mus musculus with 16 samples.

Results

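The genes described are 9 enzymes that make, interconvert or inactivate steroid hormones and that liver is known to express. They are Hsd3b2 (ENSMUSG00000063730.14), Hsd3b3 (ENSMUSG00000062410.15), Hsd3b5 (ENSMUSG00000038092.7), Hsd17b2 (ENSMUSG00000031844.9), Hsd17b6 (ENSMUSG00000025396.8), Akr1c6 (ENSMUSG00000021210.17), Akr1d1 (ENSMUSG00000038641.13), Srd5a1 (ENSMUSG00000021594.12) and Sult1e1 (ENSMUSG00000029272.9). They were found by matching gene identifiers, without their version, to these symbols, and are 9 of the 78317 genes in the count and TPM tables. All 9 were found, and all 9 passed the filter on low counts.

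RNA was measured by poly(A) RNA sequencing of powdered whole liver from wild-type C57BL/6J mice, an inbred laboratory strain. Females and males ate either a normal chow, in which fat supplied 4.5% of calories, or a high fat diet, in which it supplied 60%, for 10 weeks from their arrival at 6 weeks of age. Each of the 4 groups (female normal diet, female high fat diet, male normal diet, male high fat diet) had 4 libraries. The 2 diets are products of different makers and so may differ in more than fat content, and the hour of collection and the stage of the female cycle are not given in the sources used here. The study asked how the high fat diet acts in each sex. The labels number the replicates without saying outright that each is a separate mouse, so p-values measure the spread between these samples, which may be technical.

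Liver clears most circulating steroid hormones. Enzymes of the 3β-hydroxysteroid dehydrogenase family act on the 3-position of the steroid ring, 17β-hydroxysteroid dehydrogenases switch sex steroids between more and less active forms, 5α- and 5β-reductases saturate the ring of testosterone, progesterone and glucocorticoids, and sulfotransferases attach a sulfate that stops an estrogen from binding its receptor. Many such genes are known to differ between male and female mouse liver, under the control of the sex-specific pattern of pituitary growth hormone release.

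Totals ranged from 22228115 to 41420589 expected counts per library, and all 16 libraries carry the same batch number. Levels are given as CPM (counts relative to the library size, with TMM scaling) where libraries are compared, and as TPM (transcript shares, which also divide by gene length) where genes are compared. The 4 Y-linked genes and Xist differed between the sexes in the directions the labels give, on both diets. Male high fat diet replicates 2 and 3 stood apart from the rest of their group and lay close to each other. Their chi-square statistic per gene was 4.07, where 1 would mean sampling noise alone and the next closest of the 24 within-group pairs had 20.9. They thus differed by more than sampling noise, which does not show that they come from separate mice. Whether the pair shares a source is not given in the labels and was not tested. Both were kept, so n = 4 in that group counts them as 2 samples. Results that rest on them are given with and without them. The summed CPM of 5 hepatocyte markers ranged from 99179 to 112123 in normal diet females, 77450 to 95064 in high fat females, 78579 to 91252 in normal diet males and 55802 to 71481 in high fat males. In whole liver, fewer cells of a type and less RNA per cell cannot be told apart.

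Of the 3 Hsd3b genes, Hsd3b2 and Hsd3b3 are near-copies, which bears on how reads were shared between them, while Hsd3b5 is less alike. The first 120 bases of the 3 open reading frames (from GENCODE M21 transcripts) are shown with bases unlike Hsd3b3 in capitals.
Hsd3b3: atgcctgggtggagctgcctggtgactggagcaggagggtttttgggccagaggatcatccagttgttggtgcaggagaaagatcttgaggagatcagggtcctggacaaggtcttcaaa
Hsd3b2: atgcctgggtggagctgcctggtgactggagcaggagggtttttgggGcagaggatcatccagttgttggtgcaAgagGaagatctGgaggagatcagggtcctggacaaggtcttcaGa
Hsd3b5: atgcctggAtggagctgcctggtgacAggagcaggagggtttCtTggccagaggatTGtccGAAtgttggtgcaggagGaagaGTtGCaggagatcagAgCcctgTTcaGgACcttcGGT
In this stretch Hsd3b2 differs from Hsd3b3 at 5 bases and Hsd3b5 at 24. Over the whole reading frame of 1122 bases, Hsd3b2 and Hsd3b3 are 95.1% identical and share an unbroken identical run of 228 bases, whereas Hsd3b5 is 80.9% identical to Hsd3b2 and 80.3% to Hsd3b3. The closest copy of Hsd3b5 is Hsd3b4, at 95.2%. Of all distinct stretches of 75 bases in the transcripts, 8.23% of those of Hsd3b2, 17.7% of those of Hsd3b3, 11.7% of those of Hsd3b5 and 10.4% of those of Hsd17b6 also occur in another gene of these families, and none of those of the other 5 enzymes do. Expected counts were not whole numbers in 16 of 16 libraries for Hsd3b2, Hsd3b3 and Hsd17b6, so their values depend on how the counting model split shared reads. Counts were also not whole for Srd5a1 in 15 of 16 libraries, Akr1c6 in 8 and Hsd3b5 in 1. The search for shared stretches covered only genes of these families, so sharing with other genes was not tested. In the same annotation Hsd3b2 and Hsd3b3 overlap Zfp697 on the other strand and Srd5a1 overlaps Gm17108 on its own strand, and whether counting used the strand is not given in the sources used here.

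Akr1c6, known as the liver 17β-hydroxysteroid dehydrogenase of the aldo-keto reductase family, was the most abundant of the 9 per length in every library. Its mean level was 1192 TPM in normal diet females and 1050 TPM in normal diet males. Hsd17b6 came next in normal diet females, at 342 TPM, followed by Akr1d1 at 236 TPM, Hsd3b3 at 114.6 TPM and Hsd17b2 at 95.2 TPM. Srd5a1 stood at 23.0 TPM and Hsd3b2 at 10.0 TPM, and Sult1e1 (2.22 TPM) and Hsd3b5 (1.30 TPM) were the lowest. In normal diet males the order of the rest was different: Hsd17b6 had 143 TPM, Hsd3b3 128.4 TPM, Hsd17b2 104.6 TPM, Hsd3b5 100.9 TPM and Akr1d1 85.4 TPM, and Sult1e1 was lowest at 0.425 TPM. Hsd3b5 was therefore the lowest of the 9 by mean in females and the fifth in males.

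**Figure D1:**
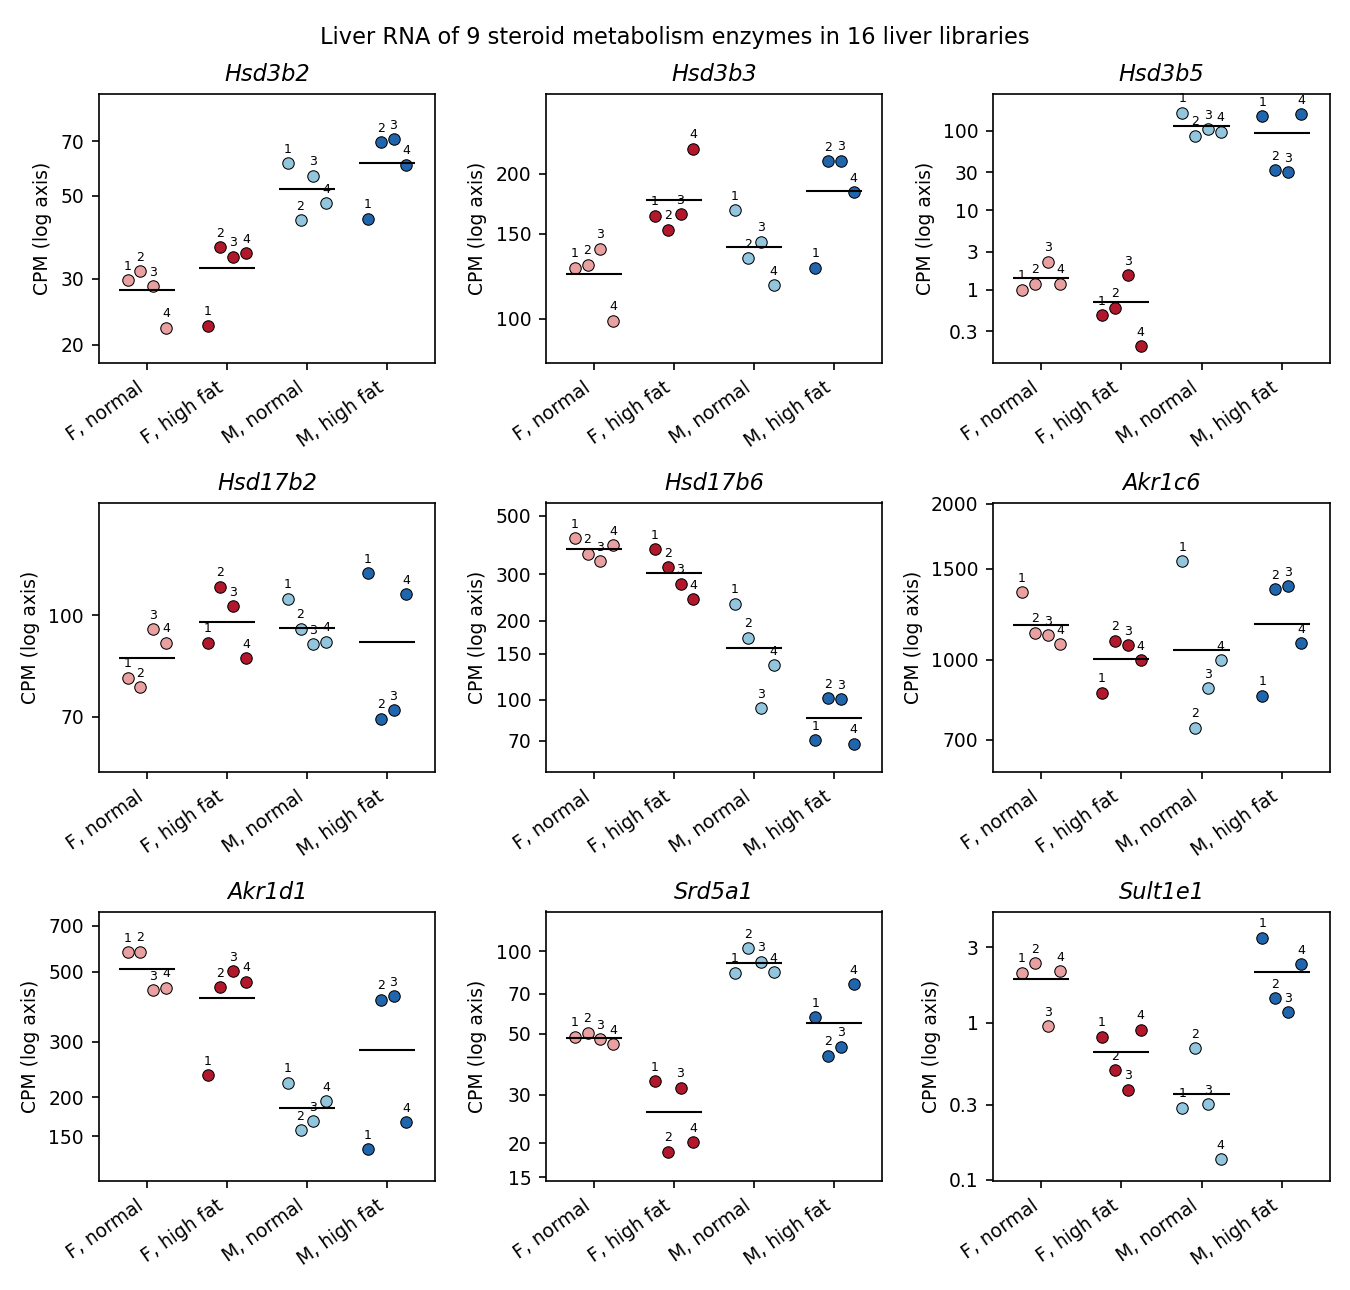
CPM of each enzyme in each library (log axes), with the 4 groups along the horizontal axis (F, females; M, males), the replicate number above each point and a bar at the group mean. Hsd3b5 lies at or below 2.27 CPM in females and at or above 30.2 CPM in males, and Sult1e1 is lower on the high fat diet in females and higher on it in males.

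The sexes differed at more of these genes than the diets did. The 9 were chosen with earlier results of these data known, and many such genes were known to differ by sex. Counts and sizes here and in the next paragraph therefore describe these 9 and are no test of them as a set. On the normal diet 6 of 9 were called between females and males by edgeR's quasi-likelihood test (Benjamini-Hochberg adjusted p under 0.05 over all 14781 genes tested), against a background of 15.7% of all genes tested. Hsd17b6, Akr1d1 and Sult1e1 were higher in females (3 of 9, with 7.03% of all genes called higher) and Hsd3b2, Hsd3b5 and Srd5a1 were lower (3 of 9, with 8.68% of all genes called lower). For the same 6 genes the 4 female and 4 male libraries did not overlap, which held for 22% of all genes. On the high fat diet 5 of 9 were called, against 20.4% of all genes: Hsd17b6 was higher in females (8.84% of all genes called higher) and Hsd3b2, Hsd3b5, Srd5a1 and Sult1e1 were lower (11.6% of all genes called lower). Libraries did not overlap for these 5, as for 22.7% of all genes. The median size of the log2 difference over the 9 was 0.91 on the normal diet and 0.93 on the high fat diet, beside 0.26 and 0.29 over all genes.

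The high fat diet changed 2 of 9 in females (background 11.5%) and 3 of 9 in males (background 11.4%). In females Srd5a1 and Sult1e1 fell, while 5.76% of all genes were called lower and 5.74% higher. In males Srd5a1 and Hsd17b6 fell and Sult1e1 rose, while 5.36% of all genes were called lower and 6.03% higher. Libraries of the 2 diets did not overlap for 3 of 9 in females, Srd5a1, Sult1e1 and Hsd3b3 (18.3% of all genes), and for 2 of 9 in males, Srd5a1 and Sult1e1 (18.5% of all genes). The change with diet itself differed between the sexes for 1 of 9, Sult1e1, lower in females minus males, where 0.677% of all genes were called (0.413% lower and 0.264% higher). The median size of the log2 change over the 9 was 0.31 in females and 0.39 in males, beside 0.24 over all genes in each.

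**Figure D2:**
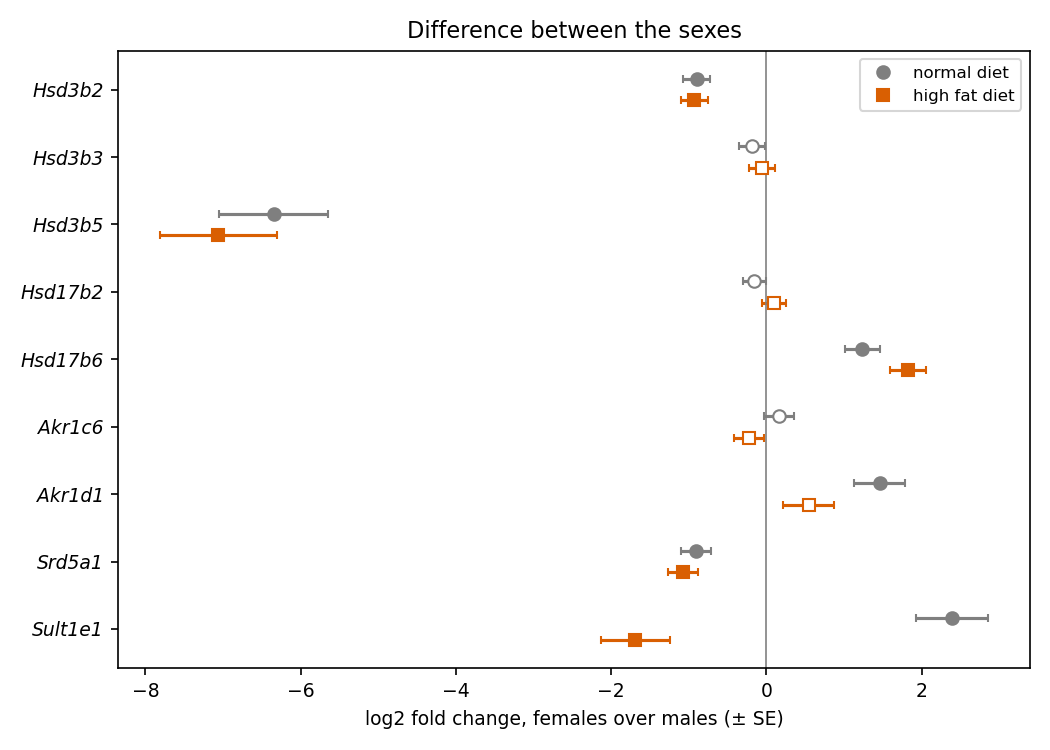
Log2 fold change of females over males with its standard error, on the normal diet (circles) and the high fat diet (squares), filled where the adjusted p was under 0.05. Hsd3b5 has the largest differences of the 9 (-6.34 and -7.06), and Sult1e1 lies on opposite sides of 0 on the 2 diets.

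Hsd3b5, a member of the 3β-hydroxysteroid dehydrogenase family that acts mainly as a 3-ketosteroid reductase in male mouse liver, was far lower in females. Its levels were 1.00, 1.20, 2.27 and 1.19 CPM in normal diet females and 0.483, 0.595, 1.53 and 0.196 CPM in high fat females. Males had 167.4, 86.9, 104.6 and 97.6 CPM on the normal diet and 151, 32.1, 30.2 and 161.2 CPM on the high fat diet. Every male library was thus above every female one, and the male high fat diet libraries fell into a low pair (replicates 2 and 3) and a high pair. The log2 difference of females from males was -6.34 ± 0.70 on the normal diet (SE, n = 4 per group, edgeR adjusted p = 7.98e-05), an 81.2-fold difference, and -7.06 ± 0.75 on the high fat diet (edgeR adjusted p = 4.93e-05). Within males the diets overlapped, with a log2 change of -0.29 ± 0.53 (edgeR adjusted p = 0.776), which became 0.45 when replicates 2 and 3 of the high fat diet were left out (edgeR adjusted p = 0.502). Within females the log2 change was -1.0 ± 0.81 (edgeR adjusted p = 0.46), with 3 of 4 high fat diet libraries below all normal diet ones.

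Hsd3b2, which oxidises and isomerises Δ5-3β-hydroxysteroids, was also lower in females, to a smaller extent. Females had 29.8, 31.4, 28.7 and 22.2 CPM on the normal diet and 22.5, 36.5, 34.4 and 35.1 CPM on the high fat diet. Males had 61.2, 43.0, 56.6 and 47.8 CPM on the normal diet and 43.5, 69.6, 70.9 and 60.5 CPM on the high fat diet. No female library reached the lowest male one in CPM on either diet. The log2 difference of females from males was -0.90 ± 0.17 on the normal diet (edgeR adjusted p = 0.00237) and -0.93 ± 0.17 on the high fat diet (edgeR adjusted p = 0.00156). On the TPM scale the lowest high fat male, at 16.02 TPM, lay below 2 of the high fat females, at 16.1 and 16.7 TPM. Diet gave log2 values of 0.20 ± 0.17 in females and 0.23 ± 0.17 in males, with overlapping libraries and edgeR adjusted p of 0.493 and 0.415.

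Hsd3b3, the close copy of Hsd3b2 and the most abundant by mean of the Hsd3b1 to Hsd3b6 copies in every group, did not pass the test between the sexes. It stood at 127.6, 129.6, 139.7 and 99.0 CPM in normal diet females and at 163.6, 153, 164.7 and 225.4 CPM in high fat females. All 4 high fat diet females lay above all 4 normal diet ones, yet the log2 change of 0.51 ± 0.17 had an edgeR adjusted p of 0.0557. This value lay close to the threshold, and DESeq2 gave an adjusted p of 0.0297 for the same change. On log2(TPM + 1), limma gave a log2 change of 0.74 with an adjusted p of 0.00919. TPM values carry no TMM scaling, and the upward move on that scale was not particular to Hsd3b3. Akr1c6 in females, not called on either scale, moved from -0.21 to 0.026. Males had 168, 133.6, 144.6 and 117.3 CPM on the normal diet and 127.7, 212.4, 212.9 and 183.4 CPM on the high fat diet. Replicate 1 of the high fat males lay within the normal diet range and the other 3 above it, for a log2 change of 0.39 ± 0.17 (edgeR adjusted p = 0.142), or 0.14 without replicates 2 and 3 (edgeR adjusted p = 0.711) and 0.52 without replicate 1 (edgeR adjusted p = 0.0326). The sexes differed by -0.18 ± 0.17 on the normal diet and -0.06 ± 0.17 on the high fat diet on the log2 scale, with overlapping libraries.

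Because reads are shared between the copies, the expected counts of Hsd3b1 to Hsd3b6 were also summed. The sum was 153.6 ± 21.2 CPM (SD, n = 4) in normal diet females, 209.8 ± 34.5 CPM in high fat females, 307 ± 63.0 CPM in normal diet males and 339 ± 44.3 CPM in high fat males. The log2 change of the sum with diet was 0.45 ± 0.15 in females and 0.14 ± 0.15 in males, and the log2 difference of females from males was -1.0 ± 0.15 on the normal diet and -0.69 ± 0.15 on the high fat diet. Hsd3b5 made up 36.6% ± 4.1 of the summed counts in normal diet males. In the high fat males the same share was 46.9%, 10.2%, 9.63% and 39.8% in replicates 1 to 4, while in females it was 0.917% ± 0.309 on the normal diet and 0.352% ± 0.292 on the high fat diet. Hsd3b3 supplied 80.7% ± 0.811 of the counts in normal diet females and 46.2% ± 3.59 in normal diet males. The sum in high fat males was 322, 314.2, 314 and 405 CPM, so replicates 2 and 3 had a low share of Hsd3b5 at a total near that of replicate 1. Hsd3b4, the near-identical partner of Hsd3b5, had at most 0.0824 CPM in any library.

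**Figure D3:**
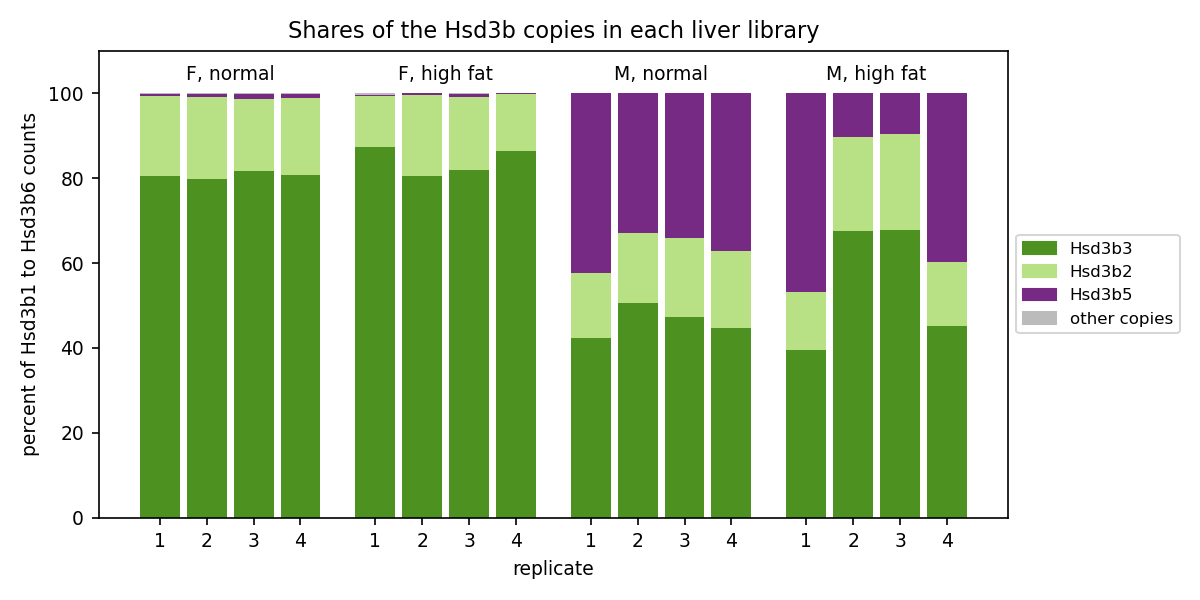
Share of the summed Hsd3b1 to Hsd3b6 expected counts held by each copy, in percent, 1 bar per library. Hsd3b5 is at most 1.33% in every female library, between 33.0% and 42.2% in normal diet males, and 10.2% and 9.63% in male high fat diet replicates 2 and 3.

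Hsd17b6, a dehydrogenase of the retinol dehydrogenase type that oxidises 3α-androstanediol back toward dihydrotestosterone, was higher in females and fell with the high fat diet in males. Females had 410.2, 358.3, 336.3 and 386.5 CPM on the normal diet and 372.4, 319.1, 276.4 and 241.2 CPM on the high fat diet. Males had 231.4, 172.3, 92.9 and 135.3 CPM on the normal diet and 70.3, 101.7, 100.7 and 68.3 CPM on the high fat diet. The lowest female library, at 241.2 CPM, was above the highest male one. The log2 difference of females from males was 1.24 ± 0.22 on the normal diet (edgeR adjusted p = 0.00146) and 1.83 ± 0.23 on the high fat diet (edgeR adjusted p = 3.78e-05), 2.36-fold and 3.54-fold. The log2 change with diet in males was -0.89 ± 0.22 (edgeR adjusted p = 0.0153), although normal diet replicate 3 lay below 2 of the high fat diet libraries. That call was lost without normal diet replicate 1, the highest male (log2 change -0.65, edgeR adjusted p = 0.0543), and without high fat diet replicate 4 (edgeR adjusted p = 0.0516). Fitting only the 2 male groups gave an edgeR adjusted p of 0.0675. In females the change was -0.30 ± 0.22 (edgeR adjusted p = 0.397), and the difference between the sexes' changes, 0.59 ± 0.31, did not pass the test (edgeR adjusted p = 0.446).

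Hsd17b2, which converts estradiol to estrone and testosterone to androstenedione, passed no test in any of the 5 contrasts. Its levels ran from 77.6 to 95.1 CPM in normal diet females, 86.0 to 110.5 CPM in high fat females and 90.3 to 105.9 CPM in normal diet males. The high fat males had 115.8, 69.5, 71.6 and 107.7 CPM, so this group held both the highest and the lowest library of all 16, and replicates 2 and 3 were the low ones. Log2 changes with diet were 0.18 ± 0.15 in females and -0.07 ± 0.15 in males. Between the sexes they were -0.15 ± 0.15 on the normal diet and 0.10 ± 0.15 on the high fat diet, with edgeR adjusted p of 0.517 and 0.667.

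Akr1c6 likewise passed no test. Females had 1349, 1127, 1114 and 1072 CPM on the normal diet and 863.9, 1089, 1068 and 999 CPM on the high fat diet. Males had 1551, 739.7, 881.6 and 997.4 CPM on the normal diet and 852.9, 1368, 1388 and 1077 CPM on the high fat diet. The male groups were the more spread ones, with standard deviations of 355 and 255.5 CPM against 124.6 and 101.5 CPM in the female groups. Log2 changes with diet were -0.21 ± 0.20 in females (edgeR adjusted p = 0.513) and 0.17 ± 0.19 in males (edgeR adjusted p = 0.619). Among the 8 Akr1c genes counted, Akr1c6 held 44.0% ± 1.34 of the counts in normal diet females, 47.9% ± 1.74 in high fat females, 41.4% ± 3.13 in normal diet males and 53.2% ± 2.21 in high fat males. The 4 high fat male shares, from 51.4% to 56.4%, were all above the 4 normal diet male shares, from 39.4% to 46.1%. The same held in females by a narrow margin, with 45.5% to 49.6% on the high fat diet and 42.3% to 45.1% on the normal diet. How often such shares separate by diet for other genes was not counted. The summed Akr1c level in males was 2485 ± 644 CPM on the normal diet and 2213 ± 529 CPM on the high fat diet.

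Akr1d1, the 5β-reductase that acts on Δ4-3-ketosteroids and on intermediates of bile acid synthesis, was higher in females than in males on the normal diet. Females had 576.7, 579, 437 and 445.6 CPM there, and males 222.1, 157, 167.5 and 194.2 CPM. The groups did not overlap, and the log2 difference was 1.46 ± 0.33 (edgeR adjusted p = 0.00839), 2.75-fold. On the high fat diet females had 235, 446.8, 503.1 and 465 CPM and males 136.5, 408.5, 418.6 and 166.5 CPM. Male replicates 2 and 3 thus lay above all normal diet males and within the range of the females, while replicates 1 and 4 lay below all female libraries. The log2 difference between the sexes on this diet was 0.55 ± 0.32 (edgeR adjusted p = 0.247), and 1.45 with an edgeR adjusted p of 0.00123 without those 2 libraries. The change with diet in males was 0.61 ± 0.33 (edgeR adjusted p = 0.241) with all libraries and -0.29 without the pair (edgeR adjusted p = 0.521). In females the change was -0.31 ± 0.32 (edgeR adjusted p = 0.585), and the difference between the sexes' changes was -0.91 ± 0.46 (edgeR adjusted p = 0.422).

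**Figure D4:**
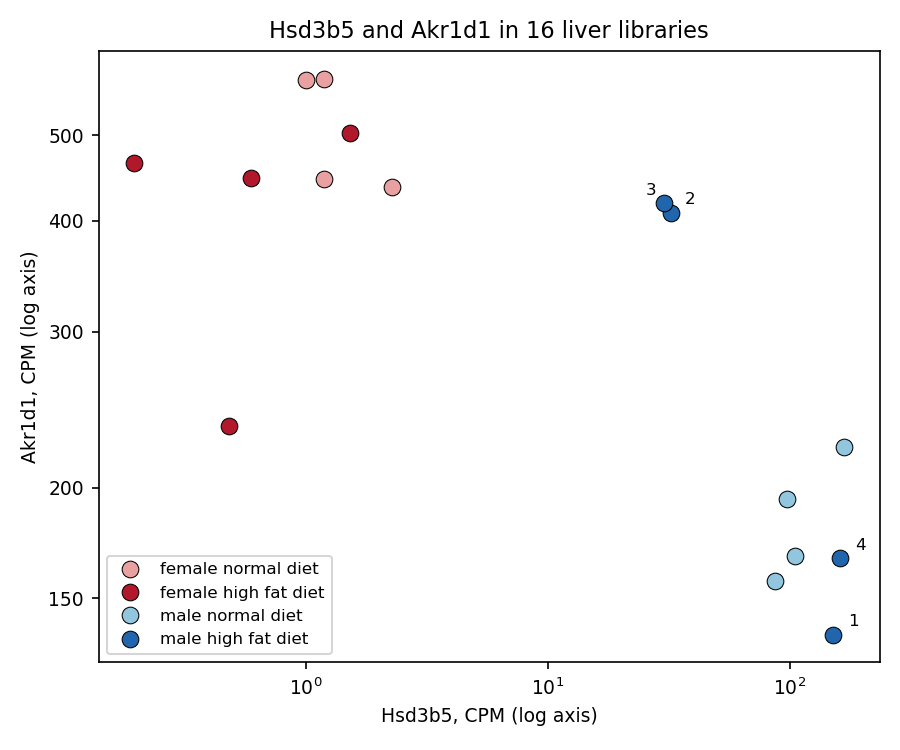
Akr1d1 against Hsd3b5 in the 16 libraries, both in CPM on log axes, coloured by group, with the male high fat diet replicates numbered. Replicates 2 and 3 lie together at 32.1 and 30.2 CPM of Hsd3b5 and 408.5 and 418.6 CPM of Akr1d1, apart from the other 6 male libraries.

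For each of the 9 enzymes, male high fat diet replicates 2 and 3 lay on the same side of replicates 1 and 4. They were lower for Hsd3b5, Hsd17b2, Srd5a1 and Sult1e1 and higher for Hsd3b2, Hsd3b3, Hsd17b6, Akr1c6 and Akr1d1. The share of all genes with this pattern was not counted, so the pattern is no result about these enzymes. Over all genes compared, replicates 2 and 3 lay at chi-square statistics per gene of 157.7 to 307.9 from replicates 1 and 4. The labels give these 4 libraries the same sex, diet, genotype and batch, and what sets the pair apart was not tested.

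Srd5a1, the type 1 5α-reductase that turns testosterone into dihydrotestosterone and starts the breakdown of glucocorticoids, was lower in females than in males and fell with the high fat diet in both sexes. Females had 48.8, 50.4, 47.7 and 45.9 CPM on the normal diet and 33.6, 18.6, 31.8 and 20.2 CPM on the high fat diet. Males had 83.4, 102.4, 91.4 and 83.8 CPM on the normal diet and 57.4, 41.6, 44.9 and 75.8 CPM on the high fat diet. In each sex the diets did not overlap in CPM. The log2 change was -0.89 ± 0.19 in females (edgeR adjusted p = 0.00747) and -0.72 ± 0.19 in males (edgeR adjusted p = 0.0214), and these changes did not differ detectably from each other (log2 difference -0.17 ± 0.27, edgeR adjusted p = 0.846). In males the call rested on few libraries. It was lost without normal diet replicate 2 (edgeR adjusted p = 0.0533), without high fat diet replicate 2 (0.0682) or replicate 3 (0.0696), and without both of these together the log2 change was -0.44 (edgeR adjusted p = 0.209). With high fat diet replicates 2 and 3 averaged, the log2 change was -0.62 and the call was also lost (edgeR adjusted p = 0.0701). On the TPM scale the highest high fat male (39.1 TPM) overlapped the lowest normal diet male (36.9 TPM). The log2 difference of females from males was -0.91 ± 0.19 on the normal diet (edgeR adjusted p = 0.00425) and -1.07 ± 0.19 on the high fat diet (edgeR adjusted p = 0.00122).

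Srd5a1 on the high fat diet in males (54.9 ± 15.5 CPM) overlapped its level in normal diet females (48.2 ± 1.90 CPM). The order of the group means was normal diet males, high fat males, normal diet females and high fat females. The middle pair were the only neighbours in that order whose CPM overlapped.

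**Figure D5:**
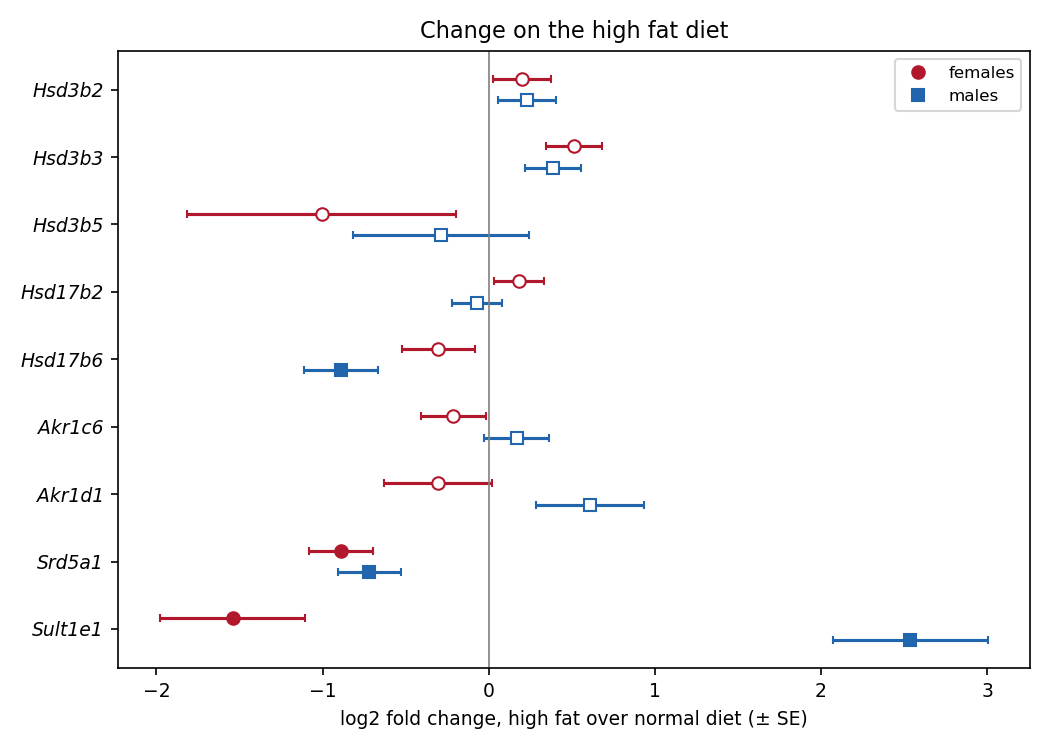
Log2 fold change on the high fat diet over the normal diet with its standard error, in females (circles) and males (squares), filled where the adjusted p was under 0.05. Srd5a1 lies below 0 in both sexes, and Sult1e1 lies at -1.54 in females and 2.54 in males.

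Sult1e1, the estrogen sulfotransferase, was scarce in every group and changed in opposite directions in the 2 sexes. Females had 2.08, 2.39, 0.951 and 2.13 CPM on the normal diet and 0.816, 0.496, 0.374 and 0.903 CPM on the high fat diet. Males had 0.288, 0.685, 0.302 and 0.135 CPM on the normal diet and 3.46, 1.43, 1.17 and 2.35 CPM on the high fat diet. These levels rest on 56, 78, 26 and 84 expected counts in the first group, 27, 15, 10 and 23 in the second, 7, 24, 7 and 5 in the third and 93, 42, 34 and 53 in the last. No library was at 0. In each sex the diets did not overlap in CPM, by a narrow margin in females (0.951 against 0.903 CPM) and with overlap there on the TPM scale (1.24 against 1.32 TPM).

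The log2 change of Sult1e1 with the high fat diet was -1.54 ± 0.44 in females (edgeR adjusted p = 0.0306), 2.91-fold lower, and 2.54 ± 0.47 in males (edgeR adjusted p = 0.00208), 5.81-fold higher. The difference between these changes, -4.08 ± 0.64, passed the test (edgeR adjusted p = 0.00582) and did so in all 24 alternative fits, with log2 values from -4.66 to -2.05 and adjusted p from 3.3e-07 to 0.0159. The fall in females was lost when any 1 of 5 libraries was removed: without normal diet replicate 1, 2 or 4, or high fat diet replicate 2 or 3, where edgeR adjusted p ran from 0.0682 to 0.0873. The rise in males was called in all its alternative fits. Between the sexes the sign turned with diet: the log2 difference of females from males was 2.39 ± 0.47 on the normal diet (edgeR adjusted p = 0.00237) and -1.69 ± 0.44 on the high fat diet (edgeR adjusted p = 0.0124). The latter call was lost without male high fat diet replicate 1, with a log2 difference of -1.30 and an edgeR adjusted p of 0.0505.

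Sult1e1 is also known from adipose tissue, and the adipocyte markers in these libraries are given beside it. The summed CPM of 5 adipocyte markers was 0.622 to 2.97 in normal diet females, 0.561 to 1.81 in high fat females and 0.742 to 1.98 in normal diet males. In high fat males it was 0.966, 10.6, 10.9 and 5.80 CPM in replicates 1 to 4. Of the 2 markers with enough counts to test, Cfd was called higher in high fat males (log2 change 4.07 ± 1.04, edgeR adjusted p = 0.0236). The other, Adipoq, was not (0.38 ± 0.48, edgeR adjusted p = 0.655). Lep had no count in high fat females. Sult1e1 in high fat male replicates 1 to 4 was 3.46, 1.43, 1.17 and 2.35 CPM. Of the 5 hepatocyte markers, Hnf4a and Alb were called lower with the high fat diet in males (log2 changes -0.47 ± 0.11 and -0.50 ± 0.14), and Hnf4a in females (-0.60 ± 0.12). Not called in males were Ttr (-0.16 ± 0.14), Apoa1 (-0.34 ± 0.22) and Fgb (0.44 ± 0.34). Not called in females were Alb (-0.33 ± 0.14), Ttr (0.04 ± 0.14), Apoa1 (0.06 ± 0.22) and Fgb (-0.01 ± 0.34). Macrophage markers summed to 153.8 to 205.7 CPM in normal diet females, 245 to 308 CPM in high fat females, 140.2 to 175 CPM in normal diet males and 124 to 223 CPM in high fat males. Of these 4 genes Cd68 was called higher with the high fat diet in both sexes (log2 changes 0.90 ± 0.16 and 0.63 ± 0.16) and Csf1r in females (0.60 ± 0.16). Of 4 stellate cell markers Col1a1 (1.61 ± 0.45) and Des (0.76 ± 0.22) were called higher with diet in females. Dcn (-0.15 ± 0.10) and Lrat (-0.14 ± 0.16) were not called there. The summed CPM of these 4 was 247 to 285 in normal diet females and 233 to 260 in high fat females. In males Cela2a of pancreatic acinar cells was called higher (3.04 ± 0.76) and Krt19 of bile duct cells lower (-1.52 ± 0.35). The part of these markers in the changes of the 9 enzymes was not tested.

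Promoters are shown for the gene whose change differed between the sexes (Sult1e1) and for the pair that stood at opposite extremes in male high fat diet replicates 2 and 3 (Akr1d1, Hsd3b5). The sequences are the 250 bases before the gene start, from RefSeq (GRCm38.p6), with capitals for a match to AGGTCA, the half-site of many nuclear receptors, on either strand.
Sult1e1, chr5:87591612-87591861, minus strand: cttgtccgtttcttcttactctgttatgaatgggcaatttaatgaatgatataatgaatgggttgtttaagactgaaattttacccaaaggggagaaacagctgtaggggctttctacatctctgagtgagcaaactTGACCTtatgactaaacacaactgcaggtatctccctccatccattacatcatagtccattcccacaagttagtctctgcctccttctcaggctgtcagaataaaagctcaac
Akr1d1, chr6:37529923-37530172, plus strand: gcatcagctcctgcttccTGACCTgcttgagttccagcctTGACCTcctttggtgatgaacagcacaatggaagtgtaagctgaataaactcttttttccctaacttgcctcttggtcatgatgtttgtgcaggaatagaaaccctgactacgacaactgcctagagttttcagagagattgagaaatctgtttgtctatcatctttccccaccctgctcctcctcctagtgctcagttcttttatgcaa
Hsd3b5, chr3:98645535-98645784, minus strand: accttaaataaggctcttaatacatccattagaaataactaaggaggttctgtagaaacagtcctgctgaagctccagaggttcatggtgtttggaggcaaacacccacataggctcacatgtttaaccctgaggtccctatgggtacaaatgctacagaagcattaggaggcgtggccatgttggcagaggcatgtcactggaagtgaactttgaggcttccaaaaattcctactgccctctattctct
Windows of 300 bases (these 250 and 50 more after the start) were found for 8 of the 9 enzymes, all but Hsd17b2. The 50 bases after the start were found near the beginning of a GENCODE M21 transcript for Akr1d1, but not for Sult1e1 or Hsd3b5. For Sult1e1 and Hsd3b5 the RefSeq start was therefore used without such a match. A match also fails where the first exon ends within the 50 bases, so this does not show that the annotations disagree. Sult1e1 has 1 AGGTCA at position -113 and Akr1d1 has 2, at -232 and -210, all on the strand opposite to the gene. The same half-site was found in 16.3% of all 32851 promoter windows, and in none of those of the other 6 enzymes. The search also covered TTCNNNGAA (a STAT-type palindrome, in 8.3% of all windows), TATAAA (13.6%), TGTTTAC (a FOXA-type motif, 3.65%) and ATCGAT (an HNF6-type motif, 0.925%), on both strands. Of these only TATAAA was found, in Akr1c6 at position -164. A match is a description of the letters in these windows.

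Other steroid enzymes were read from a list of 45 genes, of which 41 were in the table and 30 had enough counts to test. With the high fat diet in females 4 of 30 were called, 1 higher and 3 lower, beside 11.5% of all genes tested. Hsd3b7, the 3β-dehydrogenase of bile acid synthesis, rose by a log2 value of 0.87 ± 0.13, while Por, the electron donor of microsomal cytochromes P450, changed by -0.85 ± 0.13, Hsd17b7 of cholesterol synthesis by -1.40 ± 0.24 and Hsd17b12 of fatty acid elongation by -0.45 ± 0.11. In males 5 of 30 were called, 2 higher and 3 lower, beside 11.4% of all genes, among them Hsd3b7 (0.68 ± 0.13), Por (-0.69 ± 0.13) and Akr1c19 (-1.33 ± 0.27). Between the sexes 12 of 30 were called on the normal diet, 9 higher in females and 3 lower, beside 15.7% of all genes, and 7 of 30 on the high fat diet, 3 higher and 4 lower, beside 20.4%. Shares near these backgrounds are no result about the list. Cyp7b1, the oxysterol 7α-hydroxylase, had the largest of these differences that was called, at -4.41 ± 0.57 on the normal diet and -4.13 ± 0.57 on the high fat diet. Its CPM in high fat males, 1001, 140.1, 146.5 and 580.8, was low in replicates 2 and 3, as Hsd3b5 was. The median log2 change over the 30 was -0.24 in females and 0.01 in males, beside 0.00 and 0.01 over all genes.

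Of 13 steroid receptors and carriers, 9 were tested. Fkbp5, a glucocorticoid-induced co-chaperone of the glucocorticoid receptor, fell with the high fat diet, with log2 changes of -1.42 ± 0.16 in females and -1.69 ± 0.16 in males. Its 8 high fat libraries, from 38.4 to 67.2 CPM, all lay below its 8 normal diet libraries, from 118.4 to 197.7 CPM. Esr1, the estrogen receptor alpha, was higher in females by 1.08 ± 0.13 on the normal diet and 0.57 ± 0.13 on the high fat diet. Its diet changes, -0.36 ± 0.13 in females and 0.15 ± 0.13 in males, did not pass the test (edgeR adjusted p = 0.0876 and 0.506).

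Markers of steroid-making cells of adrenal gland and gonad were read from a list of 10 genes, whose summed level was 149 to 396 CPM in the 16 libraries. Of these, Scarb1 (a lipoprotein receptor) and Cyp17a1, which mouse liver also expresses, and Fdx1 (a mitochondrial ferredoxin) supplied most of that sum. Cyp11b1 had no count in any library and Nr5a1, Cyp11b2 and Cyp11a1, which starts steroid synthesis, were at or near 0, with at most 0.0604 CPM of Cyp11a1. Cyp17a1 stood at 177 ± 41.3 CPM in normal diet females and 17.0 ± 20.1 CPM in normal diet males, a log2 difference of 3.37 ± 0.67 (edgeR adjusted p = 0.00513). Cyp21a1 had at most 1.94 CPM in males and 0.110 CPM in females.

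Genes whose levels followed each enzyme most closely over the 16 libraries were ranked by Pearson r of log2 CPM among 10217 genes. The 16 points share 4 groups, so a gene that differs between sexes or diets will rank high for that alone. Hsd3b5 had the closest neighbours, Mup14 and Mup7 (major urinary proteins, each r = 0.995) and Cyp4a12a (r = 0.987). For Hsd17b6 they were Cyp2c68 (0.969), Pemt and Cyp2c40 (each 0.954), and for Akr1d1 Slc16a7 (0.969), Pon1 (0.968) and Car8 (0.961). Srd5a1 was followed by Unc13b (0.956), Tor1b (0.940) and Cyp2f2 (0.929), and Hsd3b2 by Rassf3 (0.919), Ergic1 (0.917) and Ugt1a6b (0.913). The r values were lower for Hsd3b3, led by Lgals1 (0.888), for Akr1c6, led by Glrx5 (0.877), for Sult1e1, led by Slc23a1 (0.833), and for Hsd17b2, led by Slc7a5 (0.819).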

How the data were processed

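The authors deposited RSEM expected counts and TPM per gene for 16 poly(A) RNA libraries. RSEM, STAR and the genome build GRCm39 are named in the submitters' processing notes, without versions. RSEM splits reads that map to several genes by a likelihood model, and 4.89% of the deposited expected counts were not whole. The authors' TPM values were used to compare levels between genes and as an alternative scale.

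The labels put the libraries in 4 groups of 4. Symbols were matched by identifier for 51487 of 78317 genes, which held 98.97% of counts. The genome supplied was of another build, so coordinates are given for RefSeq promoters only.

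Expected counts were rounded. Genes were kept by filterByExpr of edgeR 4.0.16 (R 4.3.3), which left 14781 genes and 99.94% of counts. The quasi-likelihood test of edgeR (TMM scaling, robust, 1 mean per group) gave 5 two-sided contrasts, adjusted by Benjamini-Hochberg over all genes tested. A gene was called at an adjusted p under 0.05, and SE is the standard error of the log2 fold change. The script was tested on simulated counts. The family sums were added as rows beside their members, with the library sizes and scaling of the main fit, and have no p. Total counts of 22228115 to 41420589 limit the precision of Sult1e1 and of Hsd3b5 in females.

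Alternatives were DESeq2 1.42.0, RLE factors, no filter, only the groups compared, limma 3.58.1 on log2(TPM + 1) and log2(TPM + 0.1), a replicate block, male high fat diet replicates 2 and 3 averaged, and each library left out. Leaving out both of these libraries was added after seeing the data. All 9 enzymes are named in every contrast. The 3 genes with the highest r (prior count 2, mean log2 CPM of at least 1) are named for each enzyme or, for the last 4, the first of them. From the other lists at most 6 called genes per contrast are named by smallest p, with these exceptions. Sult1a1 is named with diet in males, where Akr1c12 had a smaller p, and in addition between the sexes on the high fat diet. Esr1 is named between the sexes on the high fat diet, where Fkbp4 had a smaller p. Cyp11a1, Cyp11b1, Cyp11b2, Nr5a1, Fdx1, Lep, Adipoq, Ttr, Apoa1, Fgb, Dcn and Lrat were named after their values were seen. The enzymes and lists were chosen with earlier results of these data known.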

Additional observations from a re-analysis of the deposited data

Results flagged for a closer look

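In 3 of the 36 sets of 4 libraries (9 enzymes in 4 groups), 1 library lay far from the other 3 by Dixon's gap test, which chance gives in about 1 in 20 such sets. Hsd3b2 stood at 22.5 CPM in female high fat diet replicate 1 against 34.4 to 36.5 CPM in the others. Hsd3b3 stood at 225.4 CPM in female high fat diet replicate 4 against 153 to 164.7 CPM, and without it the log2 change with diet in females was 0.37 (edgeR adjusted p = 0.199). Hsd3b5 stood at 2.27 CPM in female normal diet replicate 3 against 1.00 to 1.20 CPM. The change of Sult1e1 with the high fat diet differed between the sexes, with an interaction log2 value of -4.08 ± 0.64 (edgeR adjusted p = 0.00582).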

How the results depend on the processing

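The number of the 9 enzymes called in the interaction (1) and between the sexes on the normal diet (6) was the same under every alternative run. The number called with diet in females was 2 and ran from 1 to 3 when 1 library was left out, and from 2 to 3 under the other alternatives. With diet in males it ran from 2 to 4 around 3, and between the sexes on the high fat diet from 4 to 6 around 5. The calls of Sult1e1, Srd5a1 and Hsd17b6 that were lost without a single library are given with their values above. Changes of sign were limited to effects that did not pass the test in the fit reported. Leaving out male high fat diet replicates 2 and 3 together gave log2 changes with diet in males of -0.0061 for Hsd3b2, 0.45 for Hsd3b5, 0.22 for Hsd17b2, -0.11 for Akr1c6 and -0.29 for Akr1d1. It gave interactions of 0.20 for Hsd3b2 and -0.041 for Hsd17b2, and sex differences on the high fat diet of 0.18 for Hsd3b3, -0.19 for Hsd17b2 and 0.059 for Akr1c6. Averaging these libraries gave 0.0019 for Hsd3b5 and 0.034 for Hsd17b2 with diet in males, an interaction of 0.052 for Hsd3b2 and a sex difference on the high fat diet of 0.037 for Hsd3b3. On log2(TPM + 1) and log2(TPM + 0.1), Akr1c6 with diet in females came to 0.026 and 0.026, the interaction of Hsd3b2 to 0.14 and 0.15, and Hsd3b3 between the sexes on the high fat diet to 0.13 and 0.13, and on log2(TPM + 1) the interaction of Hsd3b5 was 0.14. With 1 library left out, log2 values crossed 0 within -0.68 to 0.0059 (Hsd3b5) and -0.22 to 0.040 (Hsd17b2) with diet in males, -0.14 to 0.11 (Hsd3b2), -0.015 to 0.22 (Hsd3b3) and -0.32 to 0.024 (Srd5a1) in the interaction, and -0.20 to 0.036 (Hsd3b3) and -0.011 to 0.27 (Hsd17b2) between the sexes on the high fat diet. The cause of these shifts was not tested.

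Over all genes, the count called with diet in females was 1700 and became 2926 on log2(TPM + 1), 2763 on log2(TPM + 0.1) and 947 to 1874 with 1 library left out. The interaction count of 100 became 341 with DESeq2, 58 with the close male libraries averaged and 51 to 176 with 1 library left out. Leaving out 1 library gave 1113 to 2043 for diet in males (1684), 1325 to 2766 for sex on the normal diet (2322) and 1974 to 3062 for sex on the high fat diet (3022), which fell to 1958 when only the groups compared were fitted.

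With a replicate block the counts of enzymes called were 2, 3, 1, 6 and 5, as without it. Same-numbered libraries did not deviate together: 2 of 24 pairs had a correlation over 0.1, within a range of -0.183 to 0.119, and 7 of 24 correlated best with their own number, so the numbers are not taken to pair the mice. Depth limits Sult1e1, with 5 to 93 expected counts per library, and Hsd3b5 in females.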

Other observations

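Among steroid enzymes outside the 9, those that differed between the sexes on the normal diet were mostly higher in females. Rdh16f2 and Rdh9, of the same short-chain dehydrogenase group as Hsd17b6, had log2 differences of females from males of 2.04 ± 0.15 (SE, n = 4 per group) and 1.10 ± 0.21. Sult1a1, a phenol and estrogen sulfotransferase, had 1.58 ± 0.18, Sult1c2 had 1.28 ± 0.28 and Akr1c20, the closest copy of Akr1c6 (92.3% identical in the reading frame), had 1.18 ± 0.23. On the high fat diet Rdh16f2 (1.98 ± 0.15), Sult1c2 (1.07 ± 0.27) and Sult1a1 (0.67 ± 0.18) were again called higher in females by edgeR's quasi-likelihood test. Hsd17b12 (-0.71 ± 0.11), H6pd (-0.57 ± 0.14) and Hsd17b10 (-0.73 ± 0.18) were called lower in females on that diet. Serpina6, the carrier of corticosterone in blood, was higher in females by 1.06 ± 0.28 on the normal diet and 1.72 ± 0.29 on the high fat diet. Of these genes, Sult1a1 was the only 1 called with diet in males (log2 change 0.58 ± 0.18), with -0.34 ± 0.17 in females (not called), and the difference between its changes in the 2 sexes did not pass the test (edgeR adjusted p = 0.1).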
